A study of Mus musculus with 9 samples.

Results

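The 9 genes described here, Kdm1a, Kdm1b, Kdm2a, Kdm2b, Kdm5a, Kdm5b, Kdm5c, Kdm6a and Kdm6b, encode enzymes that take methyl groups off lysines 4, 36 and 27 of histone H3. They were chosen by gene name from the 55414 genes listed, and all 9 were among the 25128 genes tested. RNA of mouse round spermatids was sequenced in 9 libraries, 3 for each of 3 incubations, to learn how gene expression in these cells responds when L-2-hydroxyglutarate (L-2HG) is lowered and added back. All cells were kept for 24 h with 0.15% DMSO. The study's culture medium held 2 mM glutamine, 5 mM sodium lactate, 5 mM sodium pyruvate and 5% dialyzed serum. The paper lists that recipe for spermatocytes and gives none by name for round spermatids. The vehicle group (libraries 1 to 3) received DMSO only. The oxamate group (libraries 4 to 6) also received 24 mM oxamate, an inhibitor of all lactate dehydrogenases. The third group (libraries 7 to 9) received 24 mM oxamate with 0.3 mM octyl-L2HG, a form of L-2HG that enters cells. The labels give the genotype as WT for every library and no age. The study sorted its round spermatids by flow cytometry from mice in which a Stra8-driven Cre switches on tdTomato in germ cells. No group received octyl-L2HG without oxamate, so an effect of octyl-L2HG by itself cannot be told apart from one that needs oxamate. The study incubated the cells of each group in triplicate. Whether the triplicates came from separate mice is not given in the sources used here, so the p-values measure the spread between these libraries, which may be technical.

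Lysine demethylases fall into 2 chemical classes. KDM1A and KDM1B oxidise the methyl-lysine with the cofactor FAD, whereas the KDM2, KDM5 and KDM6 enzymes carry a Jumonji C (JmjC) domain that needs iron, oxygen and alpha-ketoglutarate. L-2HG resembles alpha-ketoglutarate and is known to compete with it in many enzymes of the JmjC class, but not in the FAD class. In male germ cells chromatin is rebuilt for packing into the sperm head, and which of these enzymes act then was not measured here. The measurements here are of transcripts and say nothing of enzyme activity or of the histone marks.

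Each library held between 32339533 and 39888396 reads counted in genes. Oxamate library 4 stood apart from libraries 5 and 6: their counts differed by a chi-square per degree of freedom of 16.7 and 20.7, against 1.98 between libraries 5 and 6. Vehicle library 1 stood apart to a lesser degree, at 10.7 and 10.1 from libraries 2 and 3, against 5.86 between libraries 2 and 3. Calls of single members that change without library 4 are given both ways. Summed normalized counts of 12 round spermatid markers were 104700 to 109300 in the vehicle libraries, 101900 to 103800 with oxamate and 95320 to 96820 with octyl-L2HG added. With oxamate 4 of the 12 fell, Tnp1, Tnp2, Prm1 and Prm2, and 1 rose. After octyl-L2HG 6 fell, these 4 among them, and 0 rose. Against vehicle 8 were lower with both compounds, again with these 4, and 2 were higher, Acrv1 and Acr. With offsets that remove the trend of counts on transcript length in each library, 2 fell and 1 rose with oxamate, 3 fell and 2 rose after octyl-L2HG, and 5 were lower and 3 higher against vehicle. Of all genes, 1.22%, 8.06% and 10.6% were lower in these comparisons. The part of this shift in the results below was not tested. Markers of other cells were lower: 7 spermatocyte markers, some of them still present in round spermatids, summed to 18290 to 21700, and 7 spermatogonia markers to 244 to 294. The 4 macrophage markers summed to 95.7 to 124, the 4 myoid markers to 80.8 to 110, the 5 Leydig markers to 19.9 to 40.4 and the 6 Sertoli markers to 2.29 to 7.79. Of the Sertoli list, Cldn11 was at 0 in both treated groups and Gata4 and Rhox5 with octyl-L2HG. Hsd3b1 and Insl3 of the Leydig list were at 0 with vehicle and oxamate, and C1qa of the macrophage list in both treated groups. In such bulk RNA a smaller share of cells and less RNA per cell cannot be told apart.

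Per kilobase of annotated exon, the 9 transcripts covered a wide range in the vehicle libraries. Kdm1a was the highest at 1142 ± 21.4 normalized counts per kb (SD, n = 3), followed by Kdm5b at 431 ± 17.7 and Kdm2b at 210 ± 8.41. Kdm5a (92.4 ± 11.4) and Kdm5c (89.3 ± 5.76) came next, and their vehicle libraries overlapped. Below them were Kdm2a at 43.8 ± 2.52, Kdm1b at 33.7 ± 2.14, Kdm6b at 19.7 ± 2.58 and Kdm6a at 6.23 ± 0.233, and none of these ranges overlapped its neighbour. Kdm1a, Kdm2b and Kdm5b were the highest of their subfamilies. On this length Kdm5c stood at 120 to 133 per kb with oxamate against 87.5 to 102 for Kdm5a, and at 104.5 to 113 against 95.2 to 99.7 with octyl-L2HG added, with no overlap in either group, but per kb of the longest transcript Kdm5a was the higher of these with vehicle (119.5 against 98.47) and with octyl-L2HG. The exon lengths came from another annotation than the one behind the counts, and the choice of length moved the levels of all but Kdm6b by more than the SD of the replicates: per kb of the longest transcript, vehicle levels were 1953 for Kdm1a, 818.3 for Kdm5b, 441.1 for Kdm2b and 73.67 for Kdm2a.

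**Figure D1:**
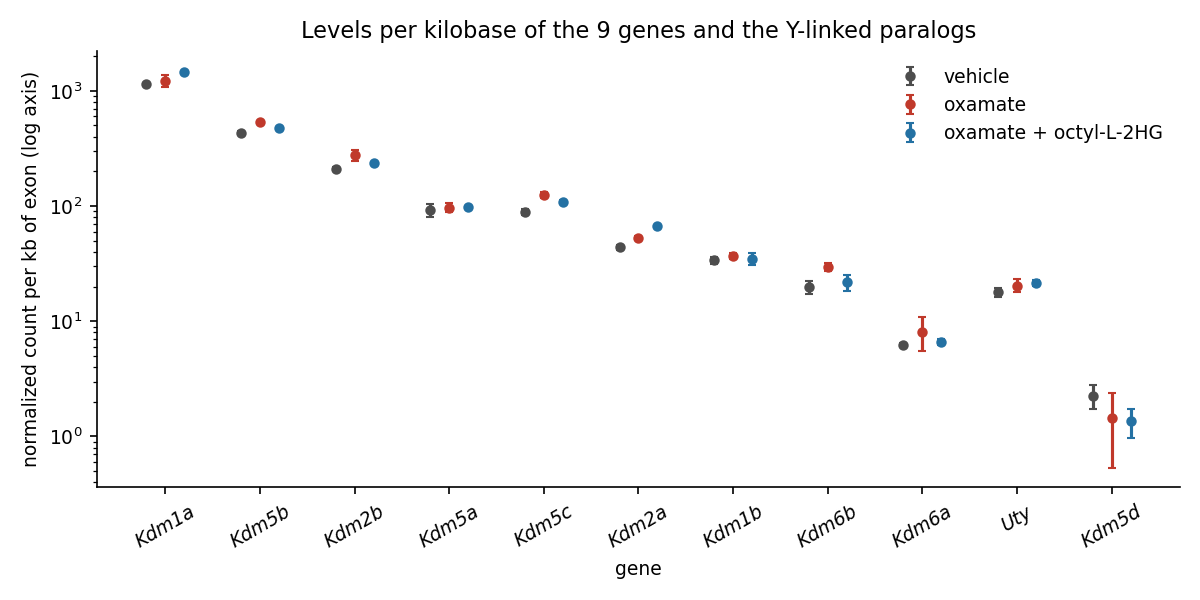
Level of each gene per kilobase of exon on a log axis, as the mean of 3 libraries with the SD as bars, for vehicle (grey), oxamate (red) and oxamate with octyl-L2HG (blue). Kdm1a is highest and Kdm6a lowest of the 9 genes, and the Y-linked Uty and Kdm5d are placed at the right for comparison.

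Oxamate raised 5 of the 9 genes and lowered none (edgeR quasi-likelihood test, adjusted p below 0.05 over all genes). It raised 6 when library 4 was left out, and 4 when any other single library was left out, with total counts or in a fit of only the 2 groups. The 5 were Kdm2a, Kdm2b, Kdm5b, Kdm5c and Kdm6b, all of the JmjC class. Of all genes tested, 3.97% were called higher in this comparison and 1.22% lower. Among the better expressed genes, those whose normalized counts averaged 100 or more, the shares were 8.07% and 1.58%. Of the 9 genes, Kdm6a alone lies under that level. With no adjustment 5 were higher and 0 lower at p below 0.05, and DESeq2 called 5 higher and 0 lower. The median log2 fold change was 0.33 over the 9 genes, against -0.01 over all genes tested. In these 5 genes every oxamate library also lay above every vehicle library, which held for 11.9% of all genes. The 9 transcripts are long, and with the same length offsets 4 of 9 were called higher and their median fell to 0.23.

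Adding octyl-L2HG to oxamate split the genes. Against oxamate by itself, Kdm1a and Kdm2a rose and Kdm6b fell, where 3.18% of all genes were called higher and 8.06% lower (7.05% and 12.7% of the better expressed genes). Without library 4, 2 members fell, and without library 5 none rose or fell. With any single library left out, 0 to 2 rose and 0 to 2 fell. The median log2 fold change was -0.18 over the 9 genes and -0.04 over all genes. In Kdm1a and Kdm2a all 3 libraries with octyl-L2HG lay above all oxamate libraries (11.5% of all genes). In Kdm2b, Kdm5b, Kdm5c and Kdm6b they lay below (16.6% of all genes), but the differences of Kdm2b, Kdm5b and Kdm5c were not called. Scaling by total counts let all 4 pass, but Kdm1a then lost its call (adjusted p = 0.0575, edgeR). Against vehicle, Kdm1a, Kdm2a and Kdm5c were called higher with both compounds and no gene lower. Of all genes 7.48% were called higher and 10.6% lower (16% and 13.6% of the better expressed genes). Without library 4, 5 members were higher. With any single library left out, 2 to 5 were higher, and with the length offsets 2. In 5 of the 9 the libraries of both compounds lay above all vehicle libraries (16.4% of all genes). With no adjustment 5 were higher and 0 lower, and DESeq2 called 4 higher and 0 lower. The vehicle libraries serve both comparisons with vehicle, and the oxamate libraries both comparisons with oxamate, so the comparisons are not independent of each other. Over the 3 groups at once, 6 of the 9 genes differed (19.8% of all genes), all but Kdm1b, Kdm5a and Kdm6a.

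**Figure D2:**
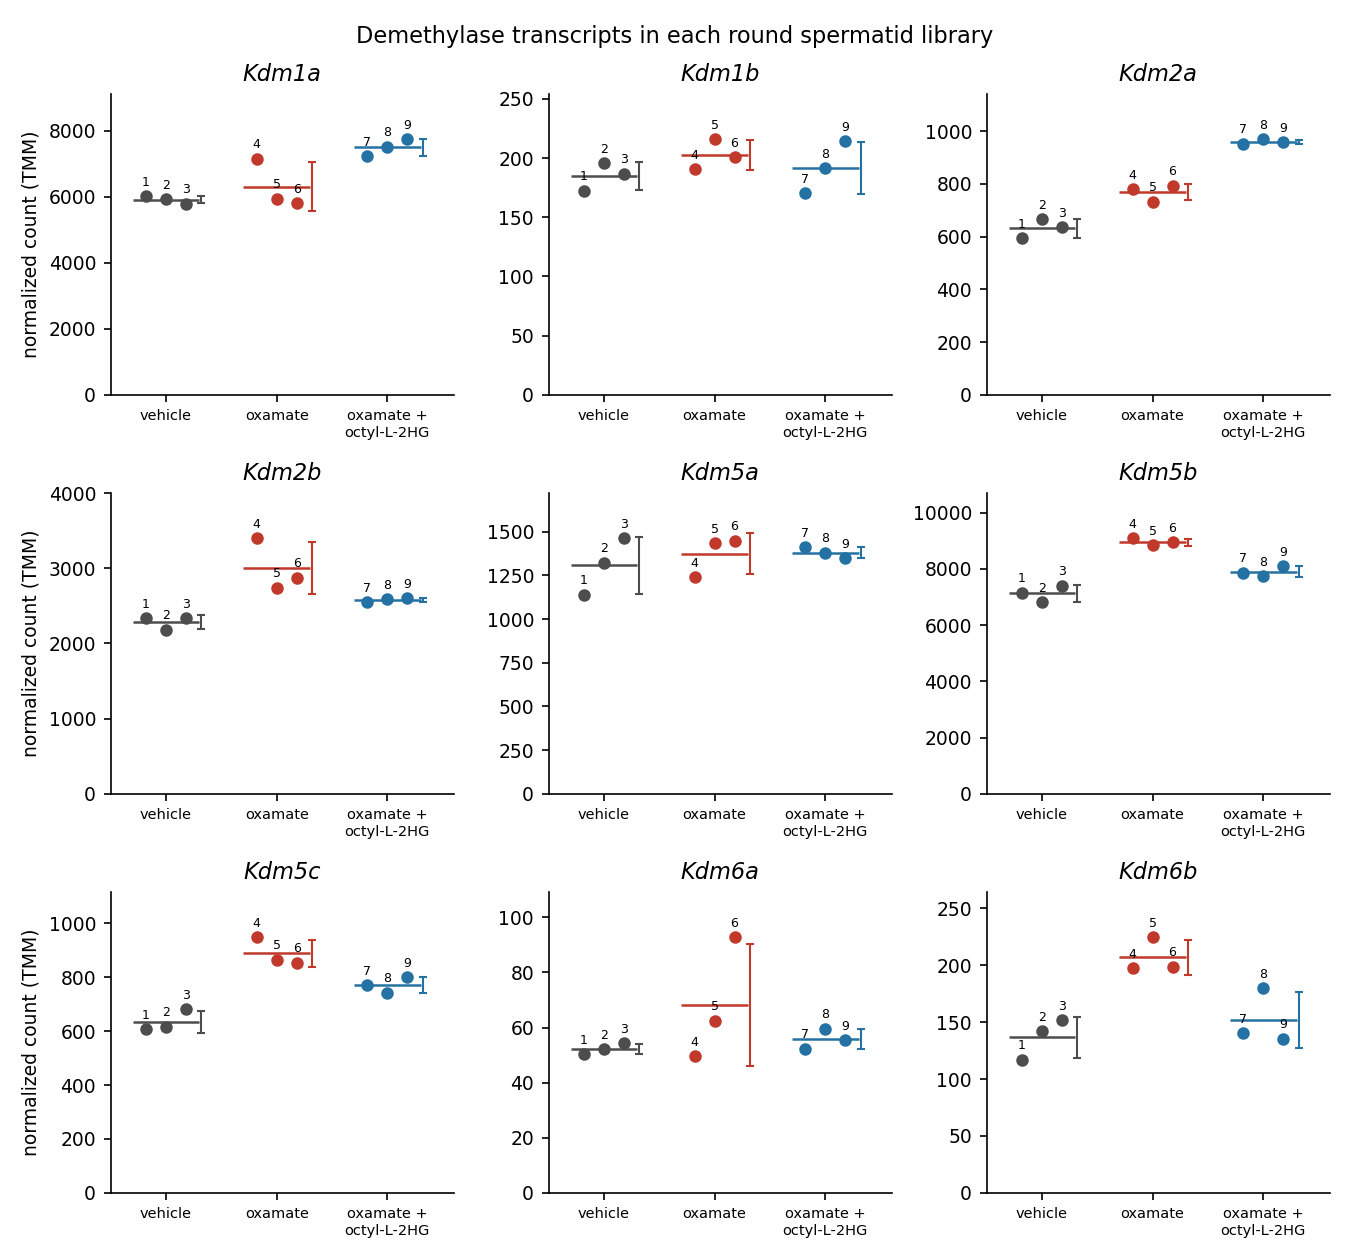
Normalized counts of the 9 genes in each library, with the library number above each point, the group mean as a line and the SD as a bar (n = 3); each axis starts at 0. Kdm2b, Kdm5b, Kdm5c and Kdm6b are highest with oxamate, whereas Kdm1a and Kdm2a are highest with octyl-L2HG added.

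The FAD-dependent Kdm1a encodes LSD1, which removes mono- and dimethylation from H3K4 as part of the CoREST corepressor complex. Its normalized counts were 6015, 5932 and 5795 with vehicle, 7159, 5939 and 5811 with oxamate, and 7238, 7525 and 7741 with octyl-L2HG added. Only oxamate library 4 left the vehicle range, and the difference with oxamate was 0.09 ± 0.07 on the log2 scale (SE; 95% interval -0.06 to 0.25; adjusted p = 0.583, edgeR), or -0.01 without that library. All 3 libraries with octyl-L2HG lay above the other 6. Kdm1a was 0.25 ± 0.07 higher than with oxamate (adjusted p = 0.0297) and 0.34 ± 0.07 higher than with vehicle (adjusted p = 0.00202). The rise over oxamate grew to 0.35 without library 4 (adjusted p = 2.31e-05). It lost its call without library 5, 6, 7, 8 or 9, at 0.20 to 0.28 with adjusted p of 0.0664 to 0.163, and with total counts (adjusted p = 0.0575), whereas the rise over vehicle held in all 9 such fits.

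Kdm1b encodes LSD2, the other FAD-dependent H3K4 demethylase, known for its role in setting imprints in growing oocytes. It was counted at 173, 196 and 187 with vehicle, 191, 216 and 201 with oxamate, and 170, 191 and 214 with octyl-L2HG added. The groups overlapped in every comparison. Its difference with oxamate was 0.13 (95% interval -0.10 to 0.36, adjusted p = 0.605, edgeR) and that after adding octyl-L2HG was -0.07 (-0.30 to 0.16, adjusted p = 0.766). The first interval reaches the size of the changes called in Kdm2a and Kdm5b.

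Kdm2a encodes a demethylase of mono- and dimethylated H3K36 that binds unmethylated CpG islands. Its normalized counts were 594, 667 and 635 with vehicle, 779, 733 and 793 with oxamate, and 953, 968 and 958 with octyl-L2HG added. The 3 groups did not overlap, and each step went up. The rise was 0.28 ± 0.08 with oxamate (adjusted p = 0.0328, edgeR), a further 0.32 ± 0.08 with octyl-L2HG (adjusted p = 0.008), and 0.60 ± 0.08 over vehicle with both (adjusted p = 8.6e-06), or 1.52-fold. The first step was the least secure call: it held without library 4 (adjusted p = 0.0186), but leaving out any other single library, 1, 2, 3, 5, 6, 7, 8 or 9, gave 0.24 to 0.32 with adjusted p of 0.051 to 0.133. The length offsets brought it to 0.19 (adjusted p = 0.17), total counts to an adjusted p of 0.0523 and a fit of only the 2 groups to 0.0974. The second step lost its call only without library 5 (0.29, adjusted p = 0.0593).

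Kdm2b encodes a related CpG island protein that recruits the variant Polycomb complex PRC1.1. It was counted at 2337, 2180 and 2338 with vehicle, 3396, 2740 and 2873 with oxamate, and 2546, 2591 and 2603 with octyl-L2HG added. The oxamate libraries were the highest, and those with octyl-L2HG lay between them and vehicle. Kdm2b was 0.39 ± 0.08 higher with oxamate (1.31-fold, adjusted p = 0.00274, edgeR) and 0.30 higher without library 4 (adjusted p = 0.00118). The difference after adding octyl-L2HG was -0.22 ± 0.08 (95% interval -0.38 to -0.06, adjusted p = 0.0685), and -0.12 without library 4 (adjusted p = 0.192). Against vehicle with both compounds it was 0.18 ± 0.08 (adjusted p = 0.124, or 0.017 without library 4). Its exons share 627 bp with Rnf34 and 199 bp with A930024E05Rik, both on the other strand, and 124 bp with Gm44574 on the same strand, where strand does not help. The library kit keeps strand, but whether the counting used it is not given in the sources used here, so reads in these stretches cannot be assigned with certainty. The same doubt on strand holds for 505 bp of Kdm1b shared with Dek, 251 bp of Kdm5a with Ccdc77 and 286 bp of Kdm6b with Kdm6bos.

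The KDM5 enzymes remove di- and trimethylation from H3K4, a mark of active promoters. Kdm5b and Kdm5c had the most similar patterns of any pair of members over the 9 libraries, while Kdm1a rose with octyl-L2HG instead. The promoters of these 3 genes are shown for that contrast, as the 250 bases upstream of the RefSeq transcript start (GRCm38.p6). Capitals mark 4 motifs, searched on either strand: the GC box with the letters GGGCGG, the box named after its letters CCAAT, the cAMP response half-site with the letters TGACG, and the hypoxia response core with the letters ACGTG. The windows are chr1:134559928-134560177 on the plus strand for Kdm5b, chrX:152232977-152233226 on the plus strand for Kdm5c and chr4:136602724-136602973 on the minus strand for Kdm1a.
Kdm5b: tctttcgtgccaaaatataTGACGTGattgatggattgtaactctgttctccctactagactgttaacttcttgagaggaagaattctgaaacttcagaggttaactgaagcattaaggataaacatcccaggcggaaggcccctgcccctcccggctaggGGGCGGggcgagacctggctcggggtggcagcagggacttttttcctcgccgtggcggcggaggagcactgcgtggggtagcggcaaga
Kdm5c: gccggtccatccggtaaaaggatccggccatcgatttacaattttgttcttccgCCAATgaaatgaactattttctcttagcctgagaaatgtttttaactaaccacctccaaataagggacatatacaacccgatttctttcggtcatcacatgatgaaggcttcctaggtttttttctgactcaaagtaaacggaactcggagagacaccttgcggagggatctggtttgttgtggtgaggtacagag
Kdm1a: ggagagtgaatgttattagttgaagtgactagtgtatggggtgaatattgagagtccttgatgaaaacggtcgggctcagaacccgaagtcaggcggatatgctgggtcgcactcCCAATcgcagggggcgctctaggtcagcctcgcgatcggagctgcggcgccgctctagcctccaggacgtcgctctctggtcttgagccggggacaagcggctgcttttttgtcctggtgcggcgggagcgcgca
The Kdm5b window held 1 GC box and, overlapping each other, 1 cAMP response half-site and 1 hypoxia response core, whereas the Kdm5c and Kdm1a windows each held 1 CCAAT box. Kdm5b and Kdm5c shared none of the 4 motifs. Of 32851 promoters of the same length, 32.7% held the GC box, 33.8% the CCAAT box, 17.8% the half-site and 16.6% the core. CpG dinucleotides numbered 13, 10 and 21 in the windows of Kdm5b, Kdm5c and Kdm1a, against a median of 6. RefSeq windows were matched for 6 of the 9 genes, the others being Kdm2a, Kdm5a and Kdm6b.

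Kdm5a, whose product was first known as a partner of the retinoblastoma protein, was counted at 1139, 1323 and 1461 with vehicle, 1239, 1434 and 1449 with oxamate, and 1411, 1380 and 1348 with octyl-L2HG added. The oxamate libraries and those with octyl-L2HG all fell within the range of the vehicle libraries. The difference with oxamate was 0.07 (95% interval -0.11 to 0.25, adjusted p = 0.749, edgeR), and that after octyl-L2HG was 0.01 (-0.17 to 0.19, adjusted p = 0.982). Its sign with oxamate turned without vehicle library 1 and under the length offsets (-0.02 in each).

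Kdm5b, the main KDM5 transcript of these cells, was counted at 7160, 6825 and 7408 with vehicle, 9083, 8835 and 8948 with oxamate, and 7862, 7749 and 8106 with octyl-L2HG added. The 3 groups did not overlap, with octyl-L2HG in the middle. Oxamate raised Kdm5b by 0.33 ± 0.06 (1.26-fold, adjusted p = 0.0019, edgeR). The difference after octyl-L2HG was -0.18 ± 0.06 (95% interval -0.31 to -0.05), with an adjusted p of 0.0613, of 0.0356 without library 4 and of 0.0146 with total counts. It was 0.15 ± 0.06 above vehicle with both compounds (adjusted p = 0.0997). Alternatives ran from 0.06 with the length offsets (adjusted p = 0.591) to 0.19, with calls by DESeq2 (adjusted p = 0.0302), edgeR's own filter (0.0461), a fit of only the 2 groups (0.0337) and without library 4 (0.0294).

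Kdm5c, an X-linked gene, gave 607, 617 and 682 with vehicle, 948, 865 and 854 with oxamate, and 771, 743 and 801 with octyl-L2HG added. The groups again kept apart, in the same order as for Kdm5b. Its rise with oxamate was 0.49 ± 0.08 (1.40-fold, adjusted p = 0.000645, edgeR), the smallest adjusted p of the 9 genes in this comparison. The difference after octyl-L2HG was -0.20 ± 0.08 (95% interval -0.37 to -0.04, adjusted p = 0.106). With both compounds Kdm5c was still 0.28 ± 0.08 above vehicle (adjusted p = 0.0163), a call lost without library 1, 2, 7 or 9 (0.25 to 0.28, adjusted p of 0.0552 to 0.0768), with total counts (0.0562) and with the length offsets (0.0656). Its Y-linked paralog Kdm5d was counted at 35.9, 41.5 and 25.7 with vehicle, 6.81, 34.2 and 25.4 with oxamate, and 25.6, 21.7 and 14.1 with octyl-L2HG. Kdm5d passed no test (log2 difference with oxamate -0.64, 95% interval -1.33 to 0.05, adjusted p = 0.337). With both compounds all its libraries lay below those of vehicle (19.7% of all genes), at -0.76 (95% interval -1.48 to -0.05, adjusted p = 0.135).

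The KDM6 enzymes remove di- and trimethylation from H3K27, the Polycomb mark. The X-linked Kdm6a, encoding UTX of the KMT2C and KMT2D complexes, was the lowest of the 9 genes, at 50.3, 52.1 and 54.2 with vehicle, 49.6, 62.5 and 92.7 with oxamate, and 52.3, 59.5 and 55.4 with octyl-L2HG added. Library 6 was far above the others and library 4 just below the vehicle libraries. The difference with oxamate was 0.37 ± 0.19 (95% interval -0.02 to 0.77, adjusted p = 0.326, edgeR), with 0.56 without library 4 (adjusted p = 0.0456) and 0.10 without library 6 (adjusted p = 0.861). After octyl-L2HG the difference was -0.28 (-0.68 to 0.12, adjusted p = 0.428), with -0.46 without library 4 (adjusted p = 0.076) and -0.0077 without library 6 (adjusted p = 0.988). The Y-linked Uty, whose product has little demethylase activity, was counted higher than Kdm6a in every library, at 159, 191 and 176 with vehicle, 170, 219 and 211 with oxamate and 208, 225 and 199 with octyl-L2HG. Per kb of exon, Uty stood at 17.9 ± 1.63 and Kdm6a at 6.23 ± 0.233 with vehicle. Uty passed no test either (0.19 with oxamate, adjusted p = 0.446). With both compounds all its libraries lay above those of vehicle (16.4% of all genes), at 0.26 (95% interval 0.02 to 0.51, adjusted p = 0.127).

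Kdm6b, encoding the inducible H3K27 demethylase JMJD3, was counted at 117, 142 and 152 with vehicle, 198, 224 and 199 with oxamate, and 140, 180 and 135 with octyl-L2HG added. All oxamate libraries were above the other 6, and the libraries with octyl-L2HG overlapped those with vehicle. Oxamate raised Kdm6b by 0.60 ± 0.13 (1.51-fold, adjusted p = 0.00585, edgeR), the largest change of the 9 genes in this comparison, and octyl-L2HG lowered it by 0.45 on the log2 scale (a change of -0.45 ± 0.13, adjusted p = 0.0237). The fall lost its call without library 5, 7 or 9 (-0.40 to -0.37, adjusted p of 0.12 to 0.138), whereas the rise held in all 9 such fits. Against vehicle the difference with both compounds was 0.15 (95% interval -0.13 to 0.42, adjusted p = 0.515).

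**Figure D3:**
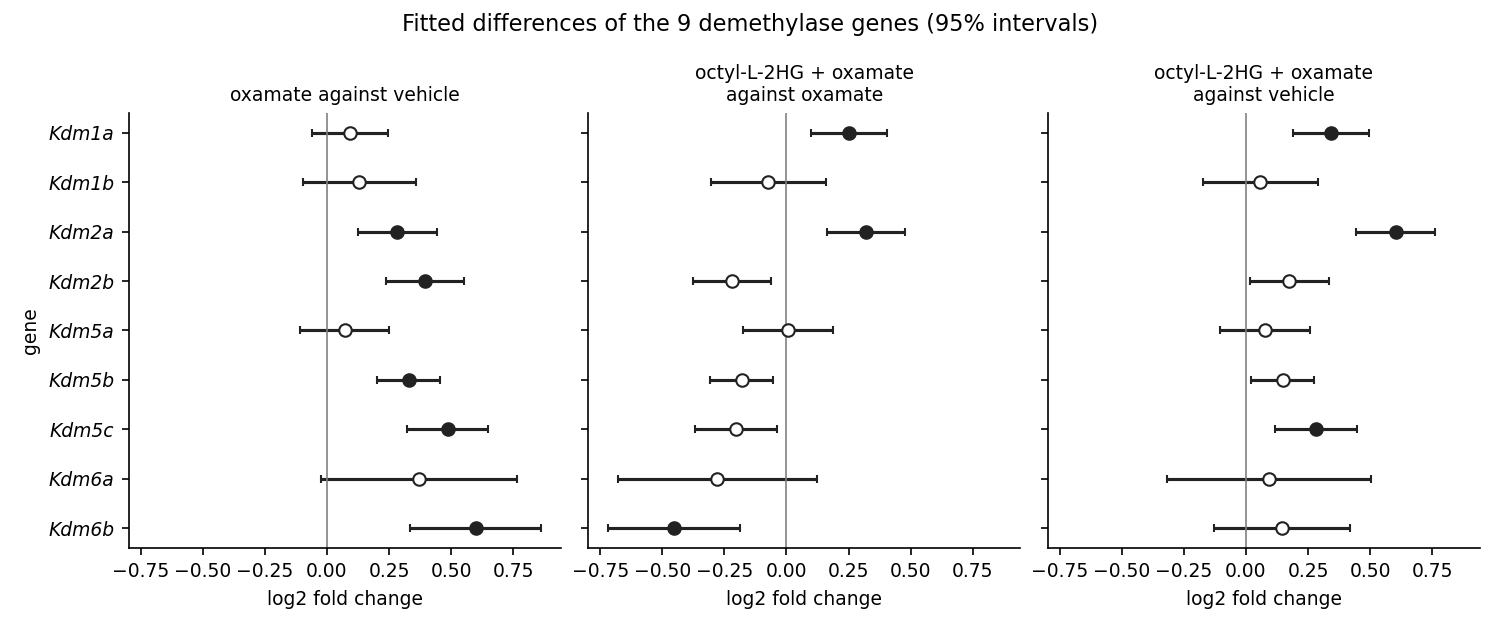
Log2 fold change of each gene with its 95% interval in the 3 comparisons; filled points passed an adjusted p of 0.05 and open points did not. Kdm2a is to the right of 0 and filled in all 3, and Kdm6b is the only filled point to the left of 0.

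Ratios of related transcripts were taken within each library, where the scaling between libraries has no effect, and tested over the 3 groups (exact permutation test of F over 1680 assignments, two-sided, smallest p possible 0.00357, adjusted over 6 pairs). The ratio of Kdm2b to Kdm2a reads was 3.94, 3.27 and 3.68 with vehicle, 4.36, 3.74 and 3.62 with oxamate, and 2.67, 2.68 and 2.72 with octyl-L2HG added. The 3 last libraries lay below the other 6, with means of 3.63 ± 0.336, 3.91 ± 0.396 and 2.69 ± 0.0254 (SD, n = 3; exact p = 0.0179, adjusted p = 0.107). Kdm5b to Kdm5a had means of 5.51, 6.56 and 5.73 (exact test, adjusted p = 0.257). Kdm1a to Kdm1b had means of 32.1, 31.3 and 39.3 (exact test, adjusted p = 0.257). Without vehicle library 1 the adjusted exact p was 0.0429 for Kdm2b to Kdm2a and 0.0214 for Kdm5b to Kdm5a. No other pair passed with any library left out.

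The X to Y ratios varied with single libraries. Kdm5c to Kdm5d ran from 14.9 to 26.5 with vehicle, from 25.3 to 139 with oxamate and from 30.1 to 56.8 with octyl-L2HG (exact test, adjusted p = 0.257), and the value of 139 came from library 4, where Kdm5d was nearly absent. Kdm6a to Uty had means of 0.299, 0.339 and 0.265 (exact test, adjusted p = 0.257), and Kdm6b to Kdm6a means of 2.61, 3.24 and 2.71 (exact test, adjusted p = 0.554).

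**Figure D4:**
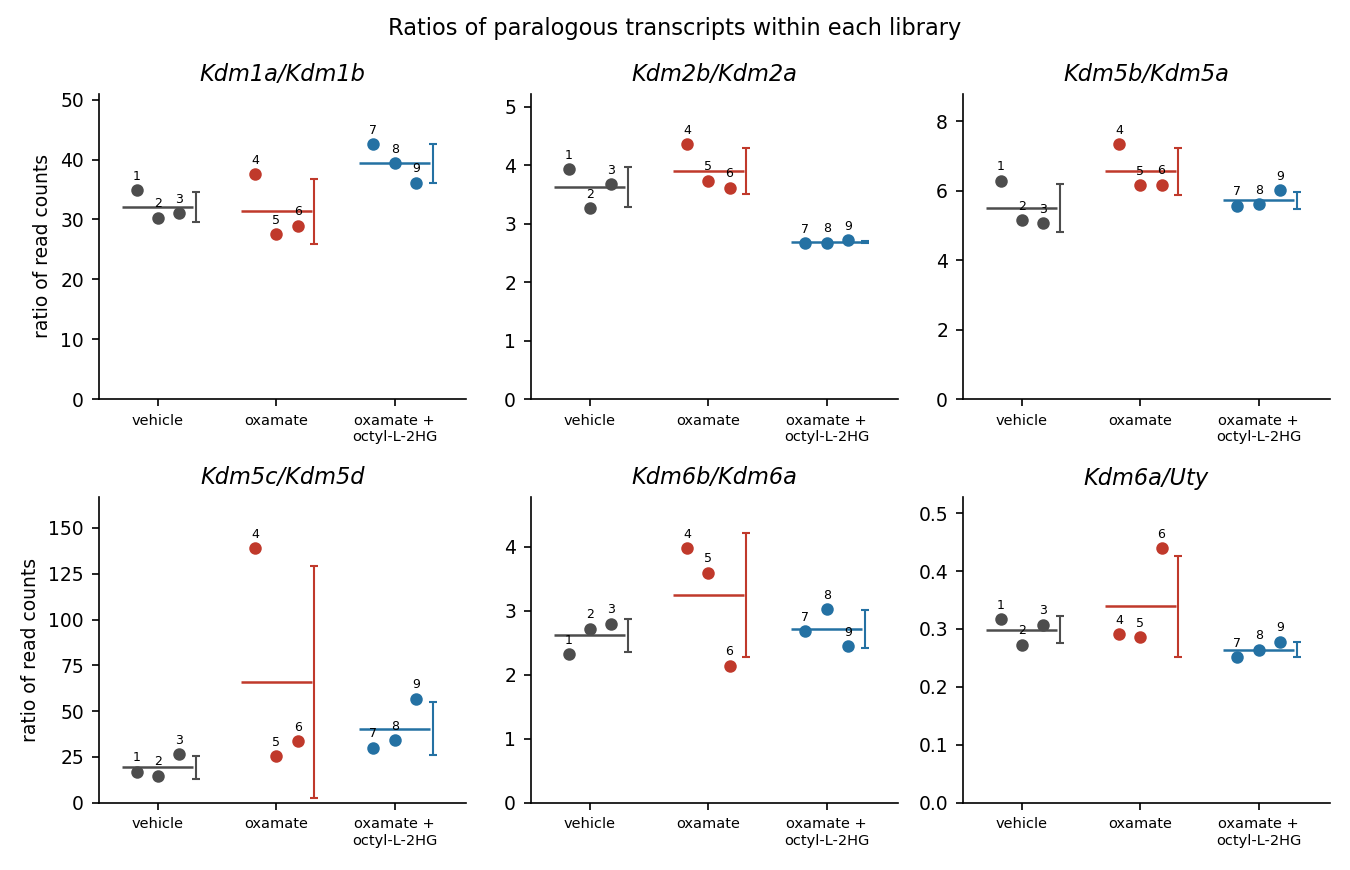
Ratio of the read counts of paralogous genes within each library, with the library number above each point, the group mean as a line and the SD as a bar (n = 3); each axis starts at 0. The Kdm2b to Kdm2a ratio of the 3 libraries with octyl-L2HG, 2.67 to 2.72, lies below that of the other 6, and library 4 sets the upper end of Kdm5c to Kdm5d at 139.

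Across the 9 libraries the members fell into a few patterns, described here by Pearson's r of log2 CPM (counts scaled to library size) with no test, since all points share the same libraries and the 3 groups. Of the 36 pairs of members, 3 had r above 0.9: Kdm5b with Kdm5c (0.969), Kdm2b with Kdm5c (0.927) and Kdm2b with Kdm5b (0.921). Kdm6b had r of 0.785 to Kdm5b, 0.763 to Kdm5c and 0.69 to Kdm2b. Kdm1a was most like Kdm2a (0.835). The median over all pairs was 0.38, and 5 pairs had r below 0. Among 10729 other well expressed genes (averaging 100 normalized counts or more), those most like Kdm5b were Bbs2 (0.984) and Kcnh2 (0.983), those most like Kdm5c were Atg2b (0.993) and Nup210 (0.984), and Uhrf1 was among those most like Kdm2b (0.981). For Kdm6b they were Gm10538 and Bach2 (0.946 each), for Kdm2a 4833439L19Rik and Nek11 (0.983 each), and for Kdm1a Slc22a21 (0.989) and Zfp41 (0.985). The genes that passed no test had partners too, since any gene has a nearest one: 4930484H19Rik (0.945) and Clca3a1 (0.929) for Kdm1b, Clip1 (0.967) and Luzp1 (0.961) for Kdm5a, and Gm16897 (0.963) and Gm8256 (0.901) for Kdm6a.

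**Figure D5:**
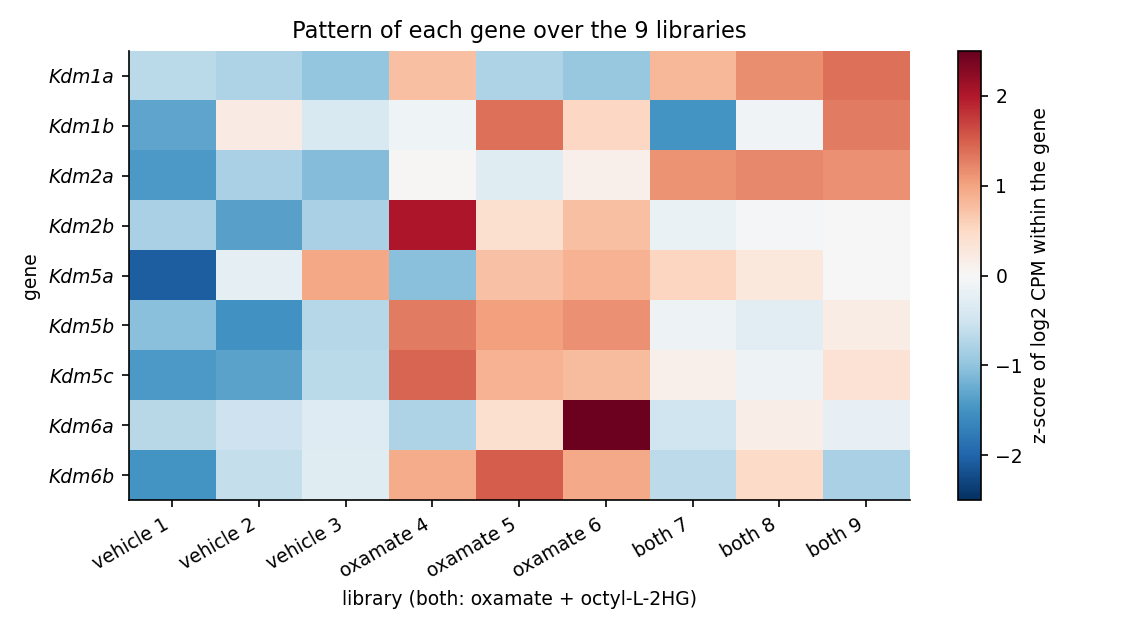
Pattern of each gene over the 9 libraries as z-scores of log2 CPM within the gene (red above, blue below the gene's mean; both means oxamate with octyl-L2HG). Kdm2b, Kdm5b, Kdm5c and Kdm6b are red in the oxamate libraries, Kdm1a and Kdm2a are red in libraries 7 to 9, and Kdm6a is marked by library 6.

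Of 71 tested genes that work with or against these enzymes, or share their domain, 14 rose and none fell with oxamate (unadjusted p below 0.05: 21 higher, 0 lower; DESeq2: 15 higher, 0 lower). Without vehicle library 1 or 2 the count was 8 or 9 higher, and without oxamate library 4 there was 1 lower. Of all genes 3.97% rose and 1.22% fell, and of the better expressed genes 8.07% rose. Their median log2 fold change was 0.11, against -0.01 over all genes. After octyl-L2HG 2 rose and 7 fell, with a median of 0.03, where 3.18% of all genes rose and 8.06% fell (7.05% and 12.7% of the better expressed genes). With a library left out, 0 to 5 rose and 5 to 10 fell. Against vehicle 21 were higher and 4 lower with both compounds, where 7.48% of all genes were higher and 10.6% lower (16% and 13.6% of the better expressed genes). These counts ran from 10 to 29 higher and from 3 to 8 lower with a library left out. The length offsets gave 10 higher and none lower with oxamate, and 13 higher and 6 lower with both compounds against vehicle. Of the 22 other JmjC-domain genes, 3 rose with oxamate, and with both compounds 6 were higher and 3 lower than with vehicle. For these 22 the length offsets gave 2 higher with oxamate, and 4 higher and 4 lower with both compounds. Jmjd1c rose by 0.36 (adjusted p = 0.0187, edgeR), and Kdm4a, a demethylase of H3K9 and H3K36, by 0.35 (adjusted p = 0.013). After octyl-L2HG 1 of the 22 rose, Hif1an, the asparagine hydroxylase of the hypoxia-inducible factor (0.27, adjusted p = 0.0364). In that comparison 4 of the 22 fell, Kdm4b the most with a change of -0.69 (adjusted p = 0.000699) and Jarid2, a PRC2 cofactor without demethylase activity, by -0.66 (adjusted p = 0.000127). The log2 differences of Kdm4b and Jarid2 with oxamate had been -0.17 and 0.10 (adjusted p of 0.479 and 0.662). Kdm4a, which had risen with oxamate, fell by 0.42 on the log2 scale (adjusted p = 0.00211). The other was Kdm3b, an H3K9 demethylase, with a change of -0.63 (adjusted p = 0.0063).

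Among 11 partners of the KDM1 enzymes, 4 rose with oxamate, or 2 with the length offsets. Of all genes 3.97% rose with oxamate (8.07% of the better expressed genes). After octyl-L2HG 3.18% of all genes rose and 8.06% fell (7.05% and 12.7% of the better expressed genes). Glyr1, the nucleosome-binding cofactor of KDM1B, rose by 0.79 (adjusted p = 3.15e-07, edgeR), while Kdm1b itself passed no test. Zmym3, a CoREST-associated protein, rose by 0.40 (adjusted p = 0.00607), and the CoREST subunit Phf21a rose only after octyl-L2HG was added, by 0.26 (adjusted p = 0.0267), against 0.01 with oxamate. Of the 8 PRC1.1 genes that work with KDM2B, the corepressors Bcor (0.65, adjusted p = 0.00191) and Bcorl1 (0.29, adjusted p = 0.0368) rose with oxamate (with the length offsets 1 gene of this list rose), and Ring1, a ubiquitin ligase subunit, fell after octyl-L2HG (-0.35, adjusted p = 0.0137). Of 7 KDM5 partners, Phf12 (0.47, adjusted p = 0.00118) and the scaffold Sin3a (0.42, adjusted p = 0.000967) rose with oxamate, and Phf12 then fell with octyl-L2HG (-0.29, adjusted p = 0.0256). None of the 8 KDM6A partners was called with oxamate by edgeR or DESeq2 (unadjusted p below 0.05: 3 higher), nor after octyl-L2HG (2 higher). With both compounds against vehicle, 4 KDM1, 1 PRC1.1, 3 KDM5 and 1 KDM6A partners were higher and 1 PRC1.1 gene was lower. Of all genes 7.48% were higher and 10.6% lower (16% and 13.6% of the better expressed genes). The length offsets gave 3, 0, 3 and 1 higher, with 1 PRC1.1 gene and 1 KDM6A partner lower.

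Enzymes that place these marks were counted in the same way, beside the same shares. With oxamate 3.97% of all genes and 8.07% of the better expressed genes rose. After octyl-L2HG 8.06% and 12.7% fell. Of 6 H3K4 methyltransferases, Setd1a (0.61, adjusted p = 0.00179, edgeR) and Setd1b (0.41, adjusted p = 0.003) rose with oxamate, and Setd1a then fell with octyl-L2HG (-0.55, adjusted p = 0.00289). Of 5 H3K36 methyltransferases, Nsd3 rose with oxamate (0.35, adjusted p = 0.00722), and none was called after octyl-L2HG by edgeR (unadjusted p below 0.05: 2 higher; DESeq2: 1 higher). None of the 4 core PRC2 genes, which place H3K27 methylation, was called with oxamate (unadjusted p below 0.05: 0; DESeq2: 0) or after octyl-L2HG (unadjusted: 1 higher; DESeq2: 0). With both compounds against vehicle, 2 of the 6 H3K4 methyltransferases, 3 of the 5 H3K36 methyltransferases and 1 of the 4 core PRC2 genes were higher and none lower by edgeR (unadjusted p below 0.05: 1 lower, among the H3K4 methyltransferases; DESeq2: 0 lower), where 7.48% of all genes and 16% of the better expressed genes were higher. With the length offsets these counts were 1, 0 and 1 higher, and 1 H3K4 methyltransferase was lower. Whether these lists differ from each other was not tested.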

How the data were processed

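Round spermatids were sequenced after poly(A) selection with a stranded mRNA kit. Per the submitters' processing notes and the methods, the authors trimmed reads with cutadapt 2.10, aligned them with TopHat 2.1.1 to GRCm39 and counted reads per gene with htseq-count 2.01; the deposited counts are not normalized. The deposited normalized signal is the count divided by the library's DESeq2 1.36.0 size factor, and served as an alternative only. Of 55414 genes listed, 6250 had no counts.

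Groups came from the labels. The test was edgeR 4.0.16 under R 4.3.3 on 25128 genes with at least 10 summed counts (TMM, 1 quasi-likelihood fit of all 9 libraries, robust, Benjamini-Hochberg, threshold 0.05). The fit was tested on simulated data. Normalized counts use TMM. Exon lengths came from GENCODE M21 (GRCm38), matched by identifier for 99.6% of genes tested, with no coordinates taken. Alternatives were DESeq2 1.42.0, other scalings and filters, length offsets, other thresholds and each library left out.

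The 9 genes and all lists were chosen with earlier results of these data known. From the lists the text names the Y-linked paralogs and, per list and comparison with oxamate, the 2 called genes with the largest change; for each member, the 2 most correlated genes are named, except 1 gene that is not reported here. Hif1an and Kdm3b, which complete a count, were named after their values were seen, as were the round spermatid markers.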

Additional observations from a re-analysis of the deposited data

How the results depend on the processing

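Of 486 values for the 9 genes under alternatives, 426 kept their direction and their side of the threshold, 31 lost a call, 17 gained one and 12 changed sign. The sign changes were all in differences that passed no test. Length offsets gave Kdm5a -0.019 with oxamate, and total counts gave it -0.039 after octyl-L2HG. Against vehicle with both compounds, Kdm1b was -0.0046 with total counts and -0.0047 with length offsets, and Kdm5a -0.0047 with length offsets. With a library left out, Kdm1a ran from -0.0091 (without library 4) to 0.15 and Kdm5a from -0.020 (without 1) to 0.15 with oxamate. After octyl-L2HG Kdm1b ran from -0.16 to 0.0056 (without 7) and Kdm5a from -0.063 (without 4; -0.0099 without 7) to 0.047. Against vehicle with both compounds Kdm1b ran from -0.032 (without 9) to 0.14 and Kdm5a from -0.013 (without 1) to 0.18. The causes were not tested.

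After octyl-L2HG, total counts gave 1 member higher and 4 lower, a threshold of 0.01 gave 1 higher and 0 lower, and unadjusted p gave 4 lower; leaving out each library gave 0 to 2 higher and 0 to 2 lower. Against vehicle with both compounds, 5 were higher in a fit of only the 2 groups and at unadjusted p, and 2 to 5 with a library left out. Of the partner, paralog and opposing genes, 8 to 16 were higher and 0 to 1 lower with oxamate when a library was left out, 0 to 5 were higher after octyl-L2HG (0 with total counts), and 10 to 29 were higher and 3 to 8 lower against vehicle. Adjusted p of the ratios ran from 0.0429 to 0.193 for Kdm2b to Kdm2a and from 0.0214 to 0.429 for Kdm5b to Kdm5a. Per kb of the longest transcript, vehicle levels were 1953 (Kdm1a), 818.3 (Kdm5b), 441.1 (Kdm2b), 119.5 (Kdm5a), 98.47 (Kdm5c), 73.67 (Kdm2a), 37.1 (Kdm1b) and 8.798 (Kdm6a).

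With total counts the median log2 fold change of all genes was -0.11 with both compounds against vehicle, where TMM gave -0.05, and this scaling moved the share of calls that were higher from 41.4% to 26.8%; after octyl-L2HG that share was 28.3% with TMM, 14.3% with total counts and 41.4% with length offsets. Kdm6a, at 49.6 to 92.7 normalized counts, and Kdm5d, at 6.81 to 41.5, had the fewest reads and the widest intervals. No paired analysis was run, because the groups share no replicate numbers. Whether libraries of different groups were prepared together is not given in the sources used here.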
